A study of Mus musculus with 15 samples.

Results

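The p53 target genes described here are Cdkn1a, Mdm2, Ccng1, Phlda3, Bax, Eda2r, Trp53inp1, Zmat3, Btg2 and Gdf15, a list of 10 gene symbols that were looked up by name in a count table of 26264 genes from mouse liver. All 10 were found, and all 10 passed the filter on low counts that left 13189 genes for testing. RNA sequencing of polyadenylated RNA was performed on 15 livers, 3 in each of 5 groups. SD-NS and HFD-NS are the groups without a named treatment, where HFD is the high-fat diet with which the series models MASLD, a fatty liver disease tied to metabolic dysfunction. HFD-Res carries the label of resmetirom, which activates the beta form of the thyroid hormone receptor. HFD-337 carries the number of Gc337, the antisense agent with which the kinase gene Stk25 was knocked down, and the meaning of the number in HFD-338 is not spelled out. SD and NS are not spelled out in the labels either, and strain, sex, age, dose and length of treatment are not given in the sources used here. No group is named as a control for an antisense agent, so the agent and the loss of its target cannot be told apart. The labels name no litter, cage or date for these livers, and the p-values below measure only the spread between these samples.

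p53, encoded by Trp53, is a transcription factor that is held at a low level in resting cells because the ubiquitin ligase MDM2 marks it for degradation. DNA damage, nucleolar stress or oncogene activity releases it, and it then binds DNA as a tetramer and switches on genes that stop the cell cycle, repair DNA, trigger apoptosis or feed back on p53 itself. In liver these targets are known from regeneration, steatosis and toxic injury, and several of them can also be driven by other factors, so a change of 1 target is not a readout of p53.

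A tetramer of p53 recognises a pair of decamers, each the p53 half-site consensus, and start windows of the members were searched for it to show what the family shares in sequence. RefSeq windows on GRCm38.p6, each 300 bases long with 250 bases before the annotated start and 50 after it, were matched for 8 of the 10 members, with 10 windows in all. The consensus is its own reverse complement, so a search of 1 strand covers both. An exact decamer stood in 1 window each of Cdkn1a, Mdm2, Ccng1 and Bax, and the second window of Cdkn1a holds none. These are 4 of the 8 members matched and 4 of their 10 windows, and 8.36% of all 32851 windows hold one. The windows of Phlda3, Eda2r, Btg2 and Gdf15 hold no exact decamer, which says only that these letters are absent there. Sites are also known to lie outside such windows, as in the first intron of Mdm2. The stretches around the matches are shown 5′ to 3′ on the strand of the gene, upstream of the start, with the decamers in capitals, exact ones and the partner decamers that depart by 1 base alike.
Cdkn1a, chr17:29090897-29090956 on the plus strand: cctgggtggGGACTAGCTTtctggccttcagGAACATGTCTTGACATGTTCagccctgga
Ccng1, chr11:40755436-40755495 on the minus strand: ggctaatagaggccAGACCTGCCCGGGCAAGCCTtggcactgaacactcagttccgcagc
Mdm2, chr10:117710908-117710967 on the minus strand: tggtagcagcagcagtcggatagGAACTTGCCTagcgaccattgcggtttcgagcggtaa
Bax, chr7:45467064-45467123 on the minus strand: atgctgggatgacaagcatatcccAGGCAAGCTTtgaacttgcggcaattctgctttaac
Cdkn1a and Ccng1 also hold a paired site, meaning decamers at most 13 bases apart with at most 1 departure from consensus over their 20 bases, and 0.627% of all windows hold such a pair. In Ccng1 and in the downstream pair of Cdkn1a the decamers abut, and the first decamer of Ccng1 and the last of Cdkn1a each carry the departure. A match in a window is a description of the letters and does not by itself show binding.

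**Figure D1:**
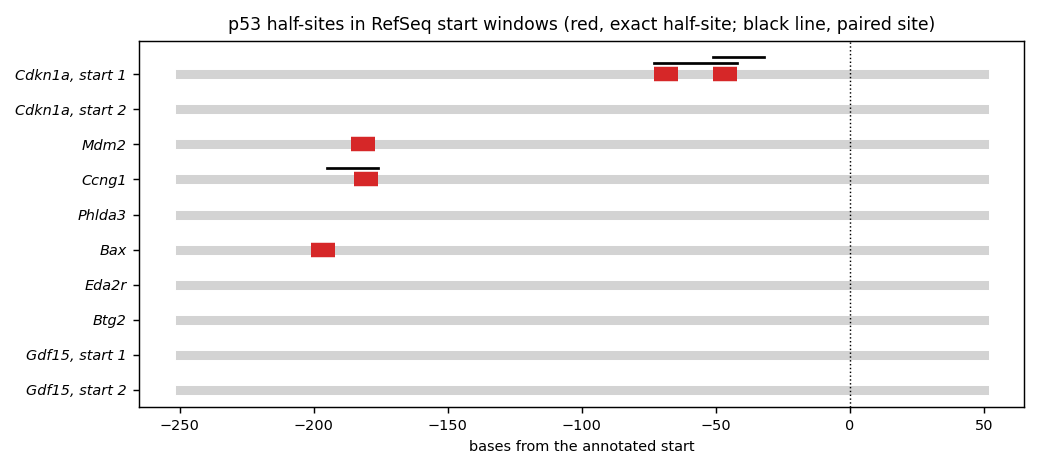
Positions of exact p53 half-sites (red) and paired sites (black lines above) in the 10 RefSeq start windows (grey) of 8 members, in bases from the annotated start, with starts of a gene numbered by genome position. Cdkn1a has 2 exact decamers within 73 bases of its first start, and Mdm2, Ccng1 and Bax have 1 each.

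Total counts per library ran from 3873903 to 9797743. Stk25 stood at 43.7 to 53.3 CPM in SD-NS and HFD-NS, at 37.7 to 46.9 in HFD-Res, at 20.5 to 22.0 in HFD-338 and at 14.6 to 19.1 in HFD-337. Exons of Farp2 overlap 23.1% of its exon length, so reads there count for both genes. A gene was called at a Benjamini-Hochberg adjusted p under 0.05 over all genes tested, in the quasi-likelihood test of edgeR. The hepatocyte markers, which include Alb and Apoa1, were detected in every group. Levels below are TMM-scaled CPM, which set a count against the size of its library, and values after ± are SDs over 3 libraries. The libraries are bulk liver, in which fewer cells of a type and less RNA per cell cannot be told apart.

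Levels of different members can be set side by side only per length, as TPM. In HFD-NS the highest were Cdkn1a at 60.3 ± 24.9 TPM and Trp53inp1 at 60.01 ± 9.13. Ccng1, Mdm2 and Bax followed at 44.0 ± 5.62, 28.7 ± 4.16 and 24.0 ± 3.47 TPM. Gdf15 lay at 10.5 ± 3.86 and Btg2 at 9.52 ± 2.76 TPM. Zmat3 at 2.49 ± 0.488 TPM, Phlda3 at 1.04 ± 0.434 and Eda2r at 0.963 ± 0.304 were the lowest. Exons of 9 members overlap no exon of another gene, and those of Zmat3 do so over 2.08% of their length.

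The members that act on the cell cycle came in different patterns. Cdkn1a encodes p21, the inhibitor of cyclin-dependent kinases that carries much of the p53 arrest (chromosome 17, 29309953 to 29319696 in mm39). The SD-NS livers held 127, 131 and 130 CPM, with 91.7, 57.9 and 39.7 CPM in HFD-NS. The HFD-338 livers held 116, 133 and 71.5 CPM, those of HFD-337 21.3, 19.9 and 10.4, and those of HFD-Res 37.9, 23.2 and 40.1. Every HFD-337 library lay below all other libraries, whereas SD-NS and HFD-338 overlapped, as did HFD-338 with HFD-NS and HFD-NS with HFD-Res. The highest group mean was 7.53 times the lowest.

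Ccng1 encodes cyclin G1, which recruits a protein phosphatase to MDM2 (chromosome 11, 40639379 to 40646113). It stood at 36.2, 36.9 and 42.8 CPM in SD-NS, 86.1, 81.2 and 69.05 in HFD-NS, 121, 130 and 107 in HFD-338, 46.9, 56.6 and 45.5 in HFD-337, with 60.4, 48.99 and 61.02 in HFD-Res. The SD-NS libraries were below and the HFD-338 libraries above all others, and only the neighbours HFD-Res and HFD-337 overlapped in the order of group means. Btg2 encodes an antiproliferative protein that binds the CCR4-NOT deadenylase (chromosome 1, 134002603 to 134006893). It stood at 6.52, 6.80 and 10.1 CPM in SD-NS, 14.6, 19.0 and 11.4 in HFD-NS, 38.8, 39.95 and 22.8 in HFD-338, 14.6, 9.11 and 11.4 in HFD-337, with 9.21, 6.67 and 9.01 in HFD-Res. HFD-338 was again above all other libraries, and the remaining neighbours in the order overlapped.

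Mdm2, the gene of the ligase that limits p53 (chromosome 10, 117524780 to 117546663), varied least, with a highest group mean 1.74 times the lowest. It stood at 51.1, 61.8 and 48.4 CPM in SD-NS, 48.2, 49.3 and 39.4 in HFD-NS, 82.8, 88.9 and 66.6 in HFD-338, 78.2, 61.7 and 65.1 in HFD-337, with 50.3, 49.7 and 48.1 in HFD-Res. All libraries of HFD-338 and HFD-337 but 1 exceeded every library of the other groups: the exception, at 61.7 CPM, lay just under the highest SD-NS library.

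Among members tied to cell death and survival, Bax encodes a pore-forming protein of the mitochondrial outer membrane (chromosome 7, 45111119 to 45116322). It stood at 9.05, 8.17 and 8.44 CPM in SD-NS, 10.5, 11.9 and 9.59 in HFD-NS, 17.6, 16.8 and 13.1 in HFD-338, 22.1, 18.6 and 17.5 in HFD-337, with 7.92, 6.90 and 11.04 in HFD-Res. As for Mdm2, HFD-337 and HFD-338 overlapped each other and lay above the other groups, here without exception. Eda2r encodes a receptor of the tumour necrosis factor receptor family that binds a form of ectodysplasin A (chromosome X, 96377447 to 96420815). It stood at 0.133, 0.194 and 0.563 CPM in SD-NS, from 4 counts in all, at 3.97, 2.36 and 2.32 in HFD-NS, 14.8, 17.3 and 10.1 in HFD-338, 5.32, 3.69 and 2.03 in HFD-337, with 2.57, 0.230 and 1.89 in HFD-Res. Phlda3 encodes a pleckstrin homology protein that restrains the kinase AKT (chromosome 1, 135693823 to 135696872). It had 2 counts in all in SD-NS, and stood at 0.584, 1.12 and 0.632 CPM in HFD-NS, 8.32, 9.40 and 4.97 in HFD-338, 1.77, 2.54 and 1.01 in HFD-337, with 0.642, 0.460 and 0.291 in HFD-Res. For both genes the HFD-338 libraries exceeded all others, and neighbours among HFD-337, HFD-NS and HFD-Res overlapped. The filter kept Phlda3 through its level in HFD-338: in fits of HFD-NS with SD-NS, HFD-337 or HFD-Res alone it was not tested.

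Trp53inp1 encodes a nuclear and autophagy protein of the stress response (chromosome 4, 11156441 to 11174379). It stood at 206, 194 and 235 CPM in SD-NS, 180, 179 and 142 in HFD-NS, 206, 256 and 205 in HFD-338, 60.3, 113 and 74.9 in HFD-337, with 122, 190 and 213 in HFD-Res. Like Cdkn1a, it was lower in every HFD-337 library than in any other library. Zmat3 encodes a zinc finger protein that binds RNA and regulates splicing (chromosome 3, 32388943 to 32419814). It stood at 6.79, 9.14 and 5.91 CPM in SD-NS, 11.2, 10.7 and 7.91 in HFD-NS, 17.2, 23.3 and 15.2 in HFD-338, 6.89, 10.03 and 9.13 in HFD-337, with 9.85, 10.6 and 9.44 in HFD-Res, with HFD-338 above all others. Gdf15 encodes a secreted stress cytokine that lowers food intake through a brainstem receptor and is also a target of the integrated stress response (chromosome 8, 71082043 to 71085106). It stood at 2.66, 6.22 and 4.78 CPM in SD-NS, 12.4, 11.5 and 5.90 in HFD-NS, 5.81, 4.82 and 4.71 in HFD-338, 6.10, 18.8 and 8.32 in HFD-337, with 3.21, 4.37 and 7.56 in HFD-Res. HFD-337 and HFD-NS had the highest means and overlapped each other. All libraries of both lay above the HFD-338 libraries, whereas single libraries of HFD-Res and SD-NS reached into their range.

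**Figure D2:**
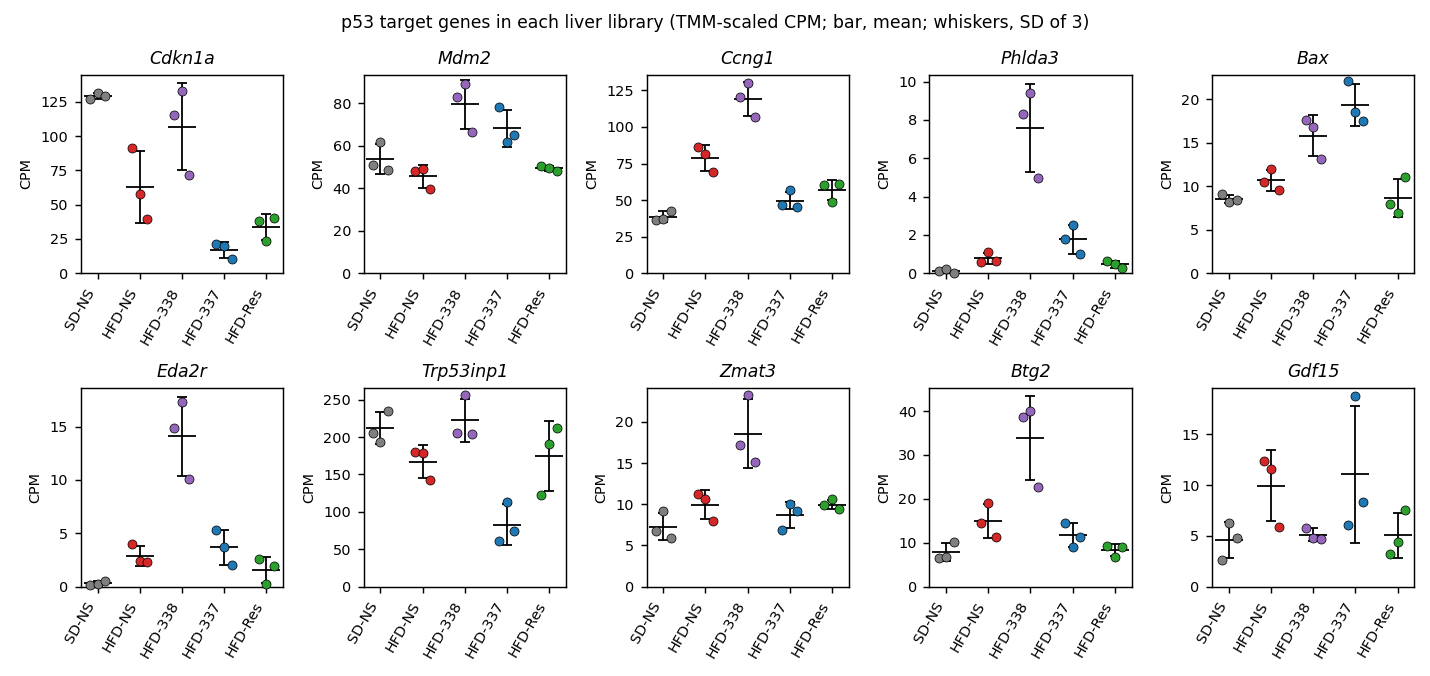
TMM-scaled CPM of the 10 members in each library (points), with the group mean (horizontal bar) and SD (whiskers) of 3 libraries, on a linear axis from 0 for each gene. Ccng1, Phlda3, Eda2r, Zmat3 and Btg2 are above all 12 other libraries in HFD-338, and Cdkn1a and Trp53inp1 are below all 12 others in HFD-337.

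Across the 15 libraries, 5 of the 10 members had all 3 HFD-338 libraries above the other 12, a pattern shown by 10.2% of all tested genes. Without Phlda3, which passed the filter through HFD-338, it was 4 of 9. In HFD-337, 2 members, Cdkn1a and Trp53inp1, had all libraries below the other 12, against 11.7% of all tested genes. In SD-NS, Ccng1 and Phlda3 did, against 4.85%. Phlda3 had only 2 counts in all in SD-NS and was kept by the filter through HFD-338. Its highest SD-NS library, at 0.194 CPM, lay just below the lowest HFD-Res library, at 0.291 CPM from 2 counts.

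How the targets differ with the high-fat diet was read from HFD-NS against SD-NS. Ccng1, Btg2, Eda2r and Phlda3 rose and Cdkn1a fell. Ccng1 averaged 78.8 ± 8.76 CPM in HFD-NS, as against 38.6 ± 3.58 in SD-NS (edgeR log2 change 1.04, SE 0.122, adjusted p = 7.61e-06). Eda2r averaged 2.88 ± 0.942 CPM against 0.297 ± 0.232 (edgeR log2 change 3.44, SE 0.715, adjusted p = 0.0018). Phlda3 was also called (adjusted p = 0.028), and since SD-NS held 2 counts its ratio of 6.21 has an exact 95% counting interval from 1.51 to 54.8. Btg2 averaged 14.99 ± 3.82 CPM against 7.82 ± 2.00 (edgeR log2 change 0.98, SE 0.276, adjusted p = 0.0146). Cdkn1a averaged 63.1 ± 26.4 CPM against 129 ± 2.00 (edgeR log2 change -1.04, SE 0.334, adjusted p = 0.0398).

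Thus 4 members rose and 1 fell, so that 5 of 10 were called, where 28.1% of all genes tested were, and the members' median log2 fold change was 0.71 against -0.02 for all genes. Of all 13189 genes tested, 1589 were called higher and 2122 lower. With log2(TPM + 1) the split of all calls changed from 42.8% to 64.1% higher, and with no low-count filter to 53.3%. Gdf15 did not pass (1.17, SE 0.467, adjusted p = 0.0787), nor did Mdm2, Bax, Trp53inp1 and Zmat3 (log2 fold changes -0.24, 0.31, -0.34 and 0.43). The call of Cdkn1a was lost without SD-NS replicate 6, 7 or 8 or HFD-NS replicate 13 or 16 (adjusted p = 0.0798 to 0.122), that of Btg2 without SD-NS replicate 6 or 7 or HFD-NS replicate 13 (0.059 to 0.0811), and that of Phlda3 without SD-NS replicate 6, 7 or 8 or HFD-NS replicate 13 (0.058 to 0.0953). Over all alternative analyses described below, Cdkn1a kept its call in 4 of 12, and Phlda3 in 5 of the 11 that tested it. Gdf15 passed without HFD-NS replicate 16 (0.0383), with DESeq2 (0.0345) and when only these 2 groups were fitted (0.0354).

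Trp53 itself averaged 14.2 ± 0.950 CPM in HFD-NS, as against 14.96 ± 1.91 in SD-NS (edgeR log2 change -0.05, SE 0.189, adjusted p = 0.864), and the sign of this small difference turned with no low-count filter and with log2(TPM + 1). Of 30 other p53 targets, all tested, 1 rose and 2 fell. The rise was Dcxr, an L-xylulose reductase (edgeR log2 change 1.02, adjusted p = 0.00143). Of 16 tested genes of p53, its relatives and regulators, 3 fell, among them Rpl5, a ribosomal protein that binds MDM2 (edgeR log2 change -0.72, adjusted p = 2.91e-05). Of 13 genes of the BCL2 family 3 rose, with Bmf, a BH3-only protein, at 1.86 (adjusted p = 0.00534), Bid at 0.59 (0.00313) and Mcl1, a survival member, at 0.45 (0.00473). Of 21 tested cell cycle genes 4 rose and 1 fell, and of 14 tested integrated stress response genes 4 rose and 4 fell. Of 10 macrophage markers 3 rose, with sums of 141 to 186 CPM in HFD-NS against 90.6 to 164, of 8 stellate cell markers 2 rose, with sums of 307 to 406 CPM against 293 to 316, of 8 tested bile duct markers 1 fell, and of 10 hepatocyte markers 3 rose and 3 fell. Their part in the members' changes was not tested.

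HFD-338, a group in which Stk25 was lower, was set against HFD-NS next. Of the 10 members 7 were called higher (Mdm2, Ccng1, Phlda3, Bax, Eda2r, Zmat3 and Btg2), against 18.9% of all genes tested. None was called lower by edgeR over all 15 libraries, against 17.9% of all genes tested, with 1 member lower at an unadjusted p under 0.05 (Gdf15) and 0 called lower by DESeq2 or limma-voom. Gdf15 was called lower by edgeR when only these 2 groups were fitted and without HFD-NS replicate 16, and its libraries did not overlap between the groups. Phlda3 averaged 7.57 ± 2.31 CPM in HFD-338, as against 0.778 ± 0.295 in HFD-NS (edgeR log2 change 3.27, SE 0.369, adjusted p = 2.85e-06). Eda2r averaged 14.1 ± 3.68 CPM against 2.88 ± 0.942 (edgeR log2 change 2.28, SE 0.35, adjusted p = 8.24e-05). Btg2 averaged 33.8 ± 9.59 CPM against 14.99 ± 3.82 (edgeR log2 change 1.18, SE 0.226, adjusted p = 0.000728).

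Changes of the other called members were smaller. Zmat3 averaged 18.6 ± 4.20 CPM in HFD-338 against 9.93 ± 1.77 (edgeR log2 change 0.91, SE 0.186, adjusted p = 0.000879). Mdm2 averaged 79.4 ± 11.5 CPM against 45.6 ± 5.41 (edgeR log2 change 0.80, SE 0.124, adjusted p = 6.78e-05). Ccng1 averaged 119 ± 11.8 CPM against 78.8 ± 8.76 (edgeR log2 change 0.60, SE 0.114, adjusted p = 0.000448), and Bax 15.8 ± 2.40 CPM against 10.7 ± 1.17 (edgeR log2 change 0.57, SE 0.162, adjusted p = 0.00951). Cdkn1a (0.76, SE 0.331, adjusted p = 0.097), Trp53inp1 (0.41, SE 0.224, adjusted p = 0.174) and Gdf15 (-0.94, SE 0.424, adjusted p = 0.0993) did not pass. Cdkn1a passed without HFD-NS replicate 12 (0.0241) or HFD-338 replicate 19 (0.0413) and with DESeq2 (0.0236) or limma-voom (0.0266), Gdf15 passed without HFD-NS replicate 16 (0.04), and Bax did not pass without HFD-NS replicate 16 (0.0509) or HFD-338 replicate 17 (0.0532).

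Without the HFD-338 libraries Phlda3 would not have passed the low-count filter, and 6 of the other 9 members rose. The members' median log2 fold change in this comparison was 0.78, and that of all genes was 0.00. On the log2(TPM + 1) scale the median of all genes was shifted to 0.12 and 67.0% of all calls were higher, against 51.4% in CPM. There 7 members were still called higher and 0 lower.

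Trp53 did not pass in HFD-338, at 15.99 ± 0.380 CPM against 14.2 ± 0.950 in HFD-NS (edgeR log2 change 0.17, SE 0.178, adjusted p = 0.48). Of the 30 other p53 targets 14 rose and 4 fell, with a median log2 fold change of 0.43. The largest rises were those of Psrc1 (edgeR log2 change 4.54, adjusted p = 1.2e-06), Ckap2 (4.02, adjusted p = 1.26e-06) and Gtse1 (2.79, adjusted p = 0.000301), all of which encode proteins of the mitotic spindle or its microtubules. These 3 and Tnfrsf10b passed the low-count filter only through HFD-338, which tends to select genes that are higher there. Among the 26 other targets that passed without it 10 rose and 4 fell. The largest falls were Sulf2, an extracellular sulfatase (-0.70, adjusted p = 0.0076), and Dcxr (-0.59, adjusted p = 0.0229). The call of Dcxr was lost without HFD-NS replicate 13 (0.0549) or 16 (0.073) or HFD-338 replicate 18 (0.103). With log2(TPM + 1) the calls of Sulf2 (0.0724) and Dcxr (0.0643) were both lost. Of the 16 genes of p53, relatives and regulators 6 rose and 2 fell, with Rpl5 among the rises (0.59, adjusted p = 0.000105). Of the 13 BCL2 family genes 6 rose and 1 fell. Bcl2, an inhibitor of apoptosis, was higher (1.18, adjusted p = 0.00409), as was Bok, an effector relative of Bax (0.98, adjusted p = 0.00261), and Bid, which activates Bax, was lower (-0.53, adjusted p = 0.00271). In the integrated stress response list, 3 of 14 tested genes rose and 5 fell, Atf5 among the falls (edgeR log2 change -0.71, adjusted p = 0.000138).

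Of 21 cell cycle genes 17 rose in the same livers, but 6 of them, among them Ccnb1 and Cdc20, passed the filter only through HFD-338. Of the 15 that passed without it 11 rose. Mki67, the proliferation marker, averaged 29.6 CPM against 3.66 (edgeR log2 change 3.005, SE 0.497, adjusted p = 0.000586). Markers of other cells moved as well. All 8 tested bile duct epithelium markers rose, with summed levels of 703 to 845 CPM in HFD-338 and 66.7 to 86.4 CPM in HFD-NS, and 5 of them passed the filter without HFD-338. Of 8 stellate cell and myofibroblast markers 4 rose, with sums of 753 to 1282 CPM against 307 to 406, and of 10 macrophage markers 5 rose, with sums of 145 to 414 CPM against 141 to 186. Of 8 sinusoidal endothelium markers 6 fell, with sums of 103 to 187 CPM against 233 to 277, and of 10 hepatocyte markers 4 fell. The part of these markers in the rise of the p53 targets was not tested.

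**Figure D3:**
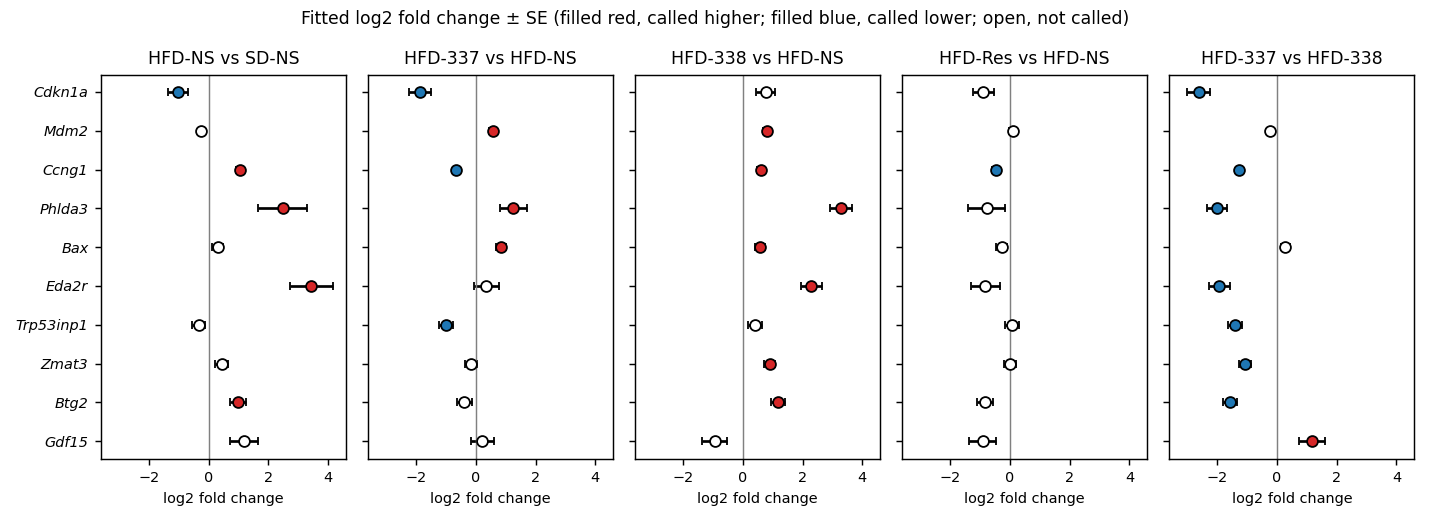
Fitted log2 fold change with its SE for the 10 members in each of 5 comparisons, with filled points for calls at an adjusted p under 0.05 (red higher, blue lower) and open points for the rest. In HFD-338 against HFD-NS 7 members are filled red, among them Phlda3, which passed the low-count filter only through HFD-338. In HFD-337 against HFD-NS 3 are red and 3 blue.

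HFD-337, the group that carries the number of the named agent, was set against HFD-NS. The members split: Mdm2, Bax and Phlda3 rose, and Cdkn1a, Ccng1 and Trp53inp1 fell. These 3 rises and 3 falls of 10 stand beside 24.4% of all genes called higher and 22.8% called lower, so the counts are near the background. Cdkn1a averaged 17.2 ± 5.96 CPM in HFD-337, as against 63.1 ± 26.4 in HFD-NS (edgeR log2 change -1.85, SE 0.374, adjusted p = 0.00187). Trp53inp1 averaged 82.7 ± 27.3 CPM against 167 ± 21.7 (edgeR log2 change -1.004, SE 0.23, adjusted p = 0.00302), and Ccng1 49.6 ± 6.06 CPM against 78.8 ± 8.76 (-0.66, SE 0.118, adjusted p = 0.000164). Bax averaged 19.4 ± 2.40 CPM against 10.7 ± 1.17 (edgeR log2 change 0.86, SE 0.164, adjusted p = 0.000305), and Mdm2 68.3 ± 8.70 CPM against 45.6 ± 5.41 (0.58, SE 0.126, adjusted p = 0.000912).

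Phlda3 averaged 1.77 ± 0.761 CPM in HFD-337 against 0.778 ± 0.295 (edgeR log2 change 1.26, SE 0.445, adjusted p = 0.0258). The ranges of Phlda3 overlapped, and its call was lost without HFD-NS replicate 12 (0.0829) or 16 (0.0819) or HFD-337 replicate 26 (0.219) and with limma-voom (0.0598). Over all alternative analyses it kept its call in 6 of the 11 that tested it. Eda2r (0.36, SE 0.407), Zmat3 (-0.17, SE 0.205), Btg2 (-0.38, SE 0.253) and Gdf15 (0.23, SE 0.399) did not pass (adjusted p = 0.233 to 0.671), and the sign of Gdf15 turned without HFD-337 replicate 26. Genes spanning under 10 kb were often higher in this comparison, with 40.0% called higher and 9.88% lower. Of the 6 members of that span 2 rose (Phlda3 and Bax) and 2 fell (Cdkn1a and Ccng1). Of the 4 longer members 1 rose and 1 fell, against 18.6% and 27.5% of such genes. With log2(TPM + 1) the share of higher calls among all called genes was 38.3%, against 51.7% in CPM.

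Trp53 rose in HFD-337, to 21.9, 18.9 and 33.5 CPM from 15.2, 14.2 and 13.3 in HFD-NS (edgeR log2 change 0.78, SE 0.177, adjusted p = 0.00132). Mdm4, the MDM2 relative that inhibits p53, rose as well (0.78, SE 0.103, adjusted p = 7.28e-06), as did Rpl11, a ribosomal protein that binds MDM2 (0.89, adjusted p = 7.34e-07). Atm, the kinase that signals double-strand breaks, fell (-0.67, adjusted p = 0.00192). In all, 3 of the 16 genes of this list rose and 4 fell. Of the 30 other p53 targets 7 rose and 8 fell, with Bbc3, the BH3-only protein PUMA, at 1.38 (adjusted p = 0.000944), Fdxr, a mitochondrial ferredoxin reductase, at 1.35 (1.14e-07) and Sulf2 at -2.12 (6.82e-07). Of 13 BCL2 family genes 1 rose and 1 fell, and of 21 cell cycle genes 6 rose and 2 fell. Among the latter Cdc20, an activator of the anaphase-promoting complex, rose by 2.53 (adjusted p = 0.00296), and Pcna, the sliding clamp of DNA polymerase, changed by -0.43 (0.00686). In the integrated stress response list, 3 of 14 tested genes rose and 3 fell. All 8 sinusoidal endothelium markers fell, with sums of 84.7 to 107 CPM against 233 to 277 in HFD-NS, and 4 of 8 tested bile duct markers rose, with sums of 132 to 315 CPM against 66.7 to 86.4. Of 8 stellate cell markers 3 fell, with sums of 120 to 261 CPM against 307 to 406, of 10 macrophage markers 2 fell and 1 rose, and of 10 hepatocyte markers 3 rose and 3 fell. The part of these markers in the members' changes was not tested.

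HFD-337 was then compared directly with HFD-338, since Stk25 was lower in both. Of the 10 members 7 were lower in HFD-337, against 29.6% of all genes tested, and Gdf15 was higher, against 28.8%. Phlda3, among these 7, passed the low-count filter only through its level in HFD-338. Cdkn1a differed most, at 17.2 ± 5.96 CPM in HFD-337 and 107 ± 31.8 in HFD-338 (edgeR log2 change -2.62, SE 0.374, adjusted p = 0.000136). Phlda3 (-2.01, SE 0.34, adjusted p = 7.05e-05), Eda2r (-1.93, SE 0.356, adjusted p = 0.000203) and Btg2 (-1.56, SE 0.242, adjusted p = 5.64e-05) followed. Trp53inp1 (-1.41, SE 0.232, adjusted p = 0.000197), Ccng1 (-1.26, SE 0.118, adjusted p = 1.12e-07) and Zmat3 (-1.07, SE 0.196, adjusted p = 0.000147) were lower as well. Mdm2 (-0.22, SE 0.123, adjusted p = 0.13) and Bax (0.28, SE 0.159, adjusted p = 0.132) did not pass, which does not show that they are alike.

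Gdf15 averaged 11.1 ± 6.77 CPM in HFD-337, as against 5.12 ± 0.607 in HFD-338 (edgeR log2 change 1.17, SE 0.428, adjusted p = 0.0307). That call was lost without HFD-338 replicate 17 (0.0542), 18 (0.0882) or 19 (0.0852) or HFD-337 replicate 26 (0.3), and Mdm2 passed without HFD-338 replicate 19 (0.0239) or HFD-337 replicate 23 (0.0431). On the log2(TPM + 1) scale the median of all genes was shifted to -0.23, and 29.2% of all calls were higher, against 49.3% in CPM. There 8 members were called lower, with Mdm2 (-0.48) added to the list. Trp53 was higher in HFD-337 than in HFD-338 (edgeR log2 change 0.61, SE 0.176, adjusted p = 0.00625), a call lost without HFD-337 replicate 27 (0.0832) and with log2(TPM + 1) (0.175).

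Of the 30 other p53 targets 15 were lower in HFD-337 than in HFD-338 and 5 higher. The filter kept 4 of the 30 only through HFD-338, and all 4 were among the lower. Ckap2 (edgeR log2 change -3.11, adjusted p = 4.2e-06), Psrc1 (-2.83, adjusted p = 1.52e-05) and Tnfrsf10b, a death receptor (-2.42, adjusted p = 0.000361), were the lowest, and all 3 passed the filter only through HFD-338. Dcxr (1.14, adjusted p = 0.000121) was among the higher genes. Of 21 cell cycle genes 15 were lower and 2 higher, but 6 of the 21 passed the filter only through HFD-338. Of 13 BCL2 family genes 6 were lower and 1 higher, with Pmaip1, the BH3-only protein NOXA (-2.25, adjusted p = 0.000655), and Bcl2l11, the BH3-only protein BIM (-1.44, adjusted p = 0.00041), lowest. In the integrated stress response list, 4 of 14 tested genes were higher and 3 lower, against 28.8% and 29.6% of all genes. The higher ones included Atf4 (edgeR log2 change 1.17, adjusted p = 2.6e-05) and the lower ones Trib3 (-1.12, adjusted p = 0.00612). The relation of this list to Gdf15 was not tested. Of 8 tested bile duct epithelium markers 7 were lower in HFD-337 and 1 higher, and of 8 stellate cell markers 7 were lower. The filter kept 3 of these bile duct markers and 1 of these stellate cell markers only through HFD-338. Of 10 macrophage markers 7 were lower, of 8 sinusoidal endothelium markers 5 were lower, and of 10 hepatocyte markers 4 were higher and 1 lower. Their part in the difference was not tested.

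The resmetirom group, HFD-Res, was set against HFD-NS last. Ccng1 fell and no other member passed. It averaged 56.8 ± 6.77 CPM in HFD-Res, as against 78.8 ± 8.76 in HFD-NS (edgeR log2 change -0.47, SE 0.118, adjusted p = 0.0114), a call lost without HFD-NS replicate 12 (0.0548) or HFD-Res replicate 30 (0.0704). The count of 1 fall in 10 stands beside 6.74% of all genes called lower. With 0 members higher by edgeR, DESeq2 or limma-voom, and 0 at an unadjusted p under 0.05, the share of all genes called higher was 6.22%. Btg2 averaged 8.29 ± 1.41 CPM against 14.99 ± 3.82 without overlap (-0.83, SE 0.27, adjusted p = 0.0542), and passed without HFD-NS replicate 16 (0.0283), with DESeq2 (0.0272) and when only these 2 groups were fitted (0.0212). Cdkn1a averaged 33.7 ± 9.17 CPM against 63.1 ± 26.4 (-0.89, SE 0.354, adjusted p = 0.141), and passed with DESeq2 (0.0252).

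The remaining members did not pass in HFD-Res either. Eda2r (-0.82, SE 0.482), Phlda3 (-0.77, SE 0.619), Gdf15 (-0.91, SE 0.45) and Bax (-0.27, SE 0.182) had negative log2 fold changes, and Mdm2 (0.11, SE 0.128), Trp53inp1 (0.07, SE 0.226) and Zmat3 (0.00, SE 0.207) were near 0, with adjusted p = 0.226 to 0.997 (edgeR). The sign of the last 2 turned when single libraries were left out. The median over the members was -0.62, against 0.01 for all genes. Trp53 was at 0.26 (SE 0.185, adjusted p = 0.419). Of the 30 other p53 targets 1 rose and 3 fell, with Sulf2 at -3.06 (adjusted p = 1.52e-07) and Ei24, an endoplasmic reticulum protein, at -0.47 (0.0035). Of 13 BCL2 family genes 3 fell, with Bok at -1.27 (adjusted p = 0.00671) and Bid at -0.69 (0.00157) the largest. In the cell cycle list 2 of 21 tested genes rose and 0 fell, and the median log2 fold change was -0.71. The rises were Ccnd1, at 164 CPM against 28.0 (edgeR log2 change 2.55, adjusted p = 0.001045), and Rrm2 (1.04, adjusted p = 0.0188). The call of Rrm2 was lost without HFD-NS replicate 12 or 13 or HFD-Res replicate 34. Of 10 hepatocyte markers 3 fell, with sums of 78552 to 86924 CPM against 113389 to 128644 in HFD-NS, of 8 tested bile duct markers 2 rose and 1 fell, and of 10 macrophage markers 1 fell. The part of these markers in the result was not tested. Of 14 integrated stress response genes, the pathway that Gdf15 shares, 4 rose and 1 fell, with Fgf21, a secreted hepatokine, at 2.91 (adjusted p = 0.000952) and Psat1, an enzyme of serine synthesis, at 4.14 (3.1e-05).

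**Figure D4:**
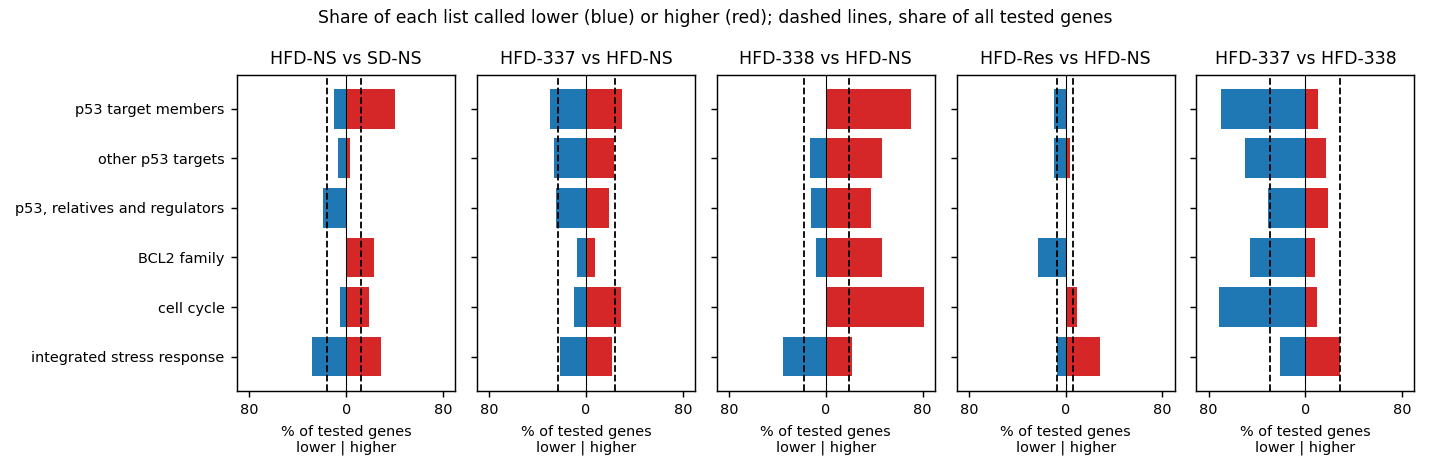
Percent of the tested genes of 6 lists that were called lower (blue, to the left) or higher (red, to the right) in each of 5 comparisons, with dashed lines at the percent of all tested genes. For the 10 members the red bar in HFD-338 against HFD-NS reaches 7 of 10 beside 18.9% of all genes. Of the 9 members that passed the filter without HFD-338, 6 were higher. For the cell cycle list the bar reaches 17 of 21, of which 6 passed the filter only through HFD-338.

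The members were also compared in their pattern over the 5 group means, with each gene centred on its own mean, by the root mean square difference from Cdkn1a on the log2 CPM scale. Genes were not scaled to a common range, so the size of the changes counts as well as their shape. The nearest of 13188 genes were Arntl, the circadian activator BMAL1 (0.289), Rnf125 (0.319), Sntb1 (0.333), Enc1 (0.358) and Rnf144a (0.361). Among the members Trp53inp1 was nearest, at 0.649 and rank 218, and Eda2r farthest, at 1.96 and rank 13004. Mdm2 (1.12), Ccng1 (1.10), Zmat3 (1.07) and Btg2 (1.14) lay between ranks 5117 and 6615. Bax (1.35, rank 10539), Gdf15 (1.44, rank 11546) and Phlda3 (1.84, rank 12914) lay farther away. The measure rests on 5 group means and is a description.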

How the data were processed

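Polyadenylated RNA of 15 mouse livers was sequenced, per the labels' protocols. Build mm39 and the tools featureCounts 2.0.1, STAR 2.7.10b, Trim Galore 0.6.10 and Bowtie 1.3.1 are listed in the submitters' processing notes, without roles. The deposited values are raw counts, and per the file headers exonic reads were summed for each gene regardless of strand, a read counting for every gene it touches. A deposited TPM table of 15 columns was not used, since its columns carry other replicate numbers than the labels; TPM was recomputed from counts and exon lengths. None of the 105 pairs of libraries held identical counts.

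Libraries were grouped by title. Genes passing filterByExpr were scaled by TMM and fitted over all 15 libraries with edgeR 4.0.16 (robust quasi-likelihood test, R 4.3.3), with Benjamini-Hochberg adjustment over 13189 genes. An SE is the absolute log2 fold change divided by the root of F. The script was tested on simulated counts. Each comparison was recomputed with RLE scaling, without the low-count filter, with DESeq2 1.42.0, with limma-voom (limma 3.58.1), from its 2 groups alone, with limma on log2(TPM + 1) where TPM reached 1 in 3 libraries, and leaving out each library. Exon overlaps used bedtools 2.31.1. Counting intervals cover counting error only. The members, the 16 gene lists and the tests were chosen with earlier results of these data known. Named genes are all members, Trp53 and Stk25, up to 3 called genes per direction and list, and the 5 nearest to Cdkn1a.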

Additional observations from a re-analysis of the deposited data

How the results depend on the processing

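Over 12 alternatives in each of 5 comparisons, 540 of 597 member results kept their direction and their side of the threshold, 32 lost a call, 17 gained one and 8 changed sign. The sign changes concern small differences. Gdf15 in HFD-337 against HFD-NS turned with log2(TPM + 1) (-0.0734), and leaving out a library gave -0.4585 (replicate 26 of HFD-337) to 0.5069, with -0.0523 without replicate 16 of HFD-NS. In HFD-Res against HFD-NS, Zmat3 turned with no low-count filter (-0.008) and ran from -0.1415 (without replicate 16 of HFD-NS) to 0.1009, and was -0.0392 without replicate 30 of HFD-Res. Trp53inp1 ran there from -0.0978 (without replicate 34 of HFD-Res) to 0.2704, and was -0.0343 without replicate 16 of HFD-NS. Trp53 in HFD-NS against SD-NS turned with no low-count filter (0.0043) and log2(TPM + 1) (0.0385), and ran from -0.1583 to 0.0244 (without replicate 8 of SD-NS). In HFD-NS against SD-NS 0 members were lower with no low-count filter, log2(TPM + 1) or the 2 groups alone, and leaving out a library gave 2 to 5 higher and 0 to 1 lower. In HFD-338 against HFD-NS 1 member was lower in the 2 groups alone, and 0 to 1 without a library. In HFD-Res against HFD-NS 3 members were lower with DESeq2 and 2 in the 2 groups alone, 0 to 2 without a library, and the genes called overall were 1134 to 1467 without a library against 1709. In HFD-337 against HFD-338 0 members were higher with no low-count filter or log2(TPM + 1), and 0 to 1 without a library. Except where a test needs fewer genes or samples, the cause was not tested. No paired analysis was possible because the groups share no replicate number. Phlda3 and Eda2r rest on few counts outside HFD-338.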

Other observations

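Of 7 tested paralogs and ligands, 1 rose and 4 fell in HFD-337 against HFD-NS, where 24.4% of all genes tested were called higher and 22.8% lower. Ccng2, cyclin G2, stood at a mean of 12.3 CPM against 32.9 (edgeR log2 change -1.41, SE 0.146, adjusted p = 4.73e-07), and Btg1, a relative of Btg2, 19.8 and 56.0 CPM (-1.47, SE 0.191, adjusted p = 1.55e-05). Eda, which encodes the ligand family of the Eda2r receptor, fell in HFD-337 (-3.67, adjusted p = 1.68e-05), in HFD-338 (-1.46, adjusted p = 0.00429) and in HFD-Res (-2.07, adjusted p = 0.00292), each against the same HFD-NS libraries. Trp53inp2, the relative of Trp53inp1, rose in HFD-Res, at 480 CPM against 298 (0.69, SE 0.116, adjusted p = 0.000391), and fell in HFD-338 (-0.75, adjusted p = 7.23e-05).

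Of the other inhibitors of cyclin-dependent kinases, Cdkn2c rose in HFD-338 against HFD-NS, at 14.1 CPM against 5.19 (edgeR log2 change 1.44, SE 0.344, adjusted p = 0.00417), the 1 called of 4 tested there. In that comparison 18.9% of all genes tested were called higher. Among 11 tested immediate early genes 1 rose in HFD-NS against SD-NS, where 1589 of all 13189 genes tested were called higher. The 1 that rose was Junb, an AP-1 subunit, at 10.9 CPM against 2.74 (1.97, SE 0.395, adjusted p = 0.00185).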
